A study of Arabidopsis thaliana with 72 samples.

Results

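GH3.3 and GH3.5, a pair of Arabidopsis genes for enzymes that conjugate the hormone auxin, were followed through 2 days of continuous light in 3 conditions. They were chosen by name, each with the probe set annotated to its locus, AT2G23170 for GH3.3 and AT4G27260, whose current symbol is WES1, for GH3.5. These are 2 of the 22810 probe sets on the ATH1 array, with 1 probe set for each gene. The RNA was labelled as coming from aerial tissue. Seedlings were raised at 19 °C for 11 days in 12 h of light and 12 h of darkness. They were then moved to continuous white light. Untreated seedlings were wild type of the C24 accession, and the treated group was C24 wild type given nicotinamide, whose dose and time of application are not given in the sources used here. The third group was toc1-1, a clock mutant of short period made by chemical mutagenesis, for which the labels state no accession background and no treatment. Each condition had 24 arrays, from 2 replicate time courses of 12 times at 4 h steps from 49 to 93 h. Several seedlings were pooled for each array, with 70 to 100 seeds plated for C24 and 150 to 200 for toc1-1. Replicate 1 of untreated seedlings was labelled as growth stage 1.03 and all other arrays as stage 1.04. For replicate 1 of both C24 conditions the growth notes name day and night hours, while replicate 2 and toc1-1 are noted as constant light, so comparisons within a replicate number are also given.

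GH3 proteins are acyl-acid-amido synthetases, which join a plant hormone to an amino acid. GH3.3 and GH3.5 act on indole-3-acetic acid, the main auxin, and so lower the pool of free hormone. GH3.5 is also known to accept salicylic acid, a defence hormone. Transcription of several GH3 genes rises soon after auxin is given, which makes them widely used auxin reporters. Auxin responses in Arabidopsis seedlings are known to be gated by the circadian clock. Nicotinamide inhibits ADP-ribosyl cyclase and is known to remove the daily oscillation of cytosolic free calcium, the subject that the title of the series names.

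The values are signals on a linear scale that the authors scaled to the same trimmed mean on every array. The median signal of an array lay between 32.6 and 38.1 in untreated seedlings, 18.9 and 31.1 under nicotinamide, and 33.6 and 37.3 in toc1-1. A pair of nicotinamide arrays stood apart from the others of their condition, 77 h replicate 1 and 85 h replicate 2, with median correlations of 0.891 and 0.922 over the probe sets tested. The lowest such correlation was 0.946 in untreated seedlings, at 93 h in replicate 1, and 0.961 in toc1-1. Fold changes and tests below use log2(signal + 16) in a limma model across 13647 probe sets, with Benjamini-Hochberg adjusted p values and a threshold of 0.05. On that scale the median change of all probe sets under nicotinamide was -0.12 against untreated seedlings, and 0.005 after quantile normalization. The share of nicotinamide calls that were higher moved with it, from 39% to 50.4%. Markers of root were looked at because they bear on what tissue was harvested. Of 28 root genes listed, 7 had a named probe set and 5 were tested. All 5 were called lower under nicotinamide than in untreated seedlings, as were 48.4% of all probe sets. In toc1-1, 4 were called lower, as were 19.6%. The filter took the mean over all arrays, so genes bright only in untreated seedlings could enter, which favours such calls. AT4G26010, AT5G17820 and AT3G01190 had untreated medians of 184.8, 116 and 45.4. Under nicotinamide these were 0.766, 11.1 and 13, and in toc1-1 10.2, 16.3 and 4.5. The shares of all probe sets are therefore no fair measure for these genes. Their untreated medians lay above the median signal of every untreated array, which is at odds with a label of aerial tissue alone. Whether root was harvested was not tested. Summed over the 7, signal lay between 1351 and 5882 in untreated seedlings (median 4201), 1180 and 3024 under nicotinamide (median 2273), and 2169 and 5064 in toc1-1 (median 3729). PYK10, a beta-glucosidase of root and hypocotyl, gave most of that sum. None of the 7 medians was at 0, and the lowest was 0.766 for AT4G26010 under nicotinamide. The green tissue marker RCA, the activase of Rubisco, had medians of 4853, 5303 and 4823 in the same order and passed the test in neither comparison. After quantile normalization RCA was called in both, at 0.097 higher under nicotinamide (adjusted p = 0.000742) and -0.18 in toc1-1 (1.53e-07).

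GH3.3 was higher under nicotinamide at every time. In untreated seedlings its signal ran from 43.9 at 73 h to 179.6 at 57 h, with a median of 103 and a mean of 101 ± 35.2 (SD, n = 24). Under nicotinamide it ran from 281 at 93 h to 1038 at 69 h, with a median of 527 and a mean of 575 ± 196 (SD, n = 24). The ranges did not overlap, and the lowest nicotinamide array was 1.57 times the highest untreated array. The share of all probe sets with ranges so separated was not counted. The difference of the means was 2.33 ± 0.10 on the log2 scale (SE), which is 5.01-fold (95% confidence interval 4.35 to 5.78; adjusted p = 5.2e-24, limma). Of all probe sets tested, 30.9% were called higher in that comparison, and GH3.3 stood at rank 67 by size. Each of the 12 times passed by itself, with adjusted p values between 2.22e-10 and 0.000301. A rise called at every time was seen in 3.16% of probe sets. The smallest difference was 1.62 ± 0.35 at 57 h, where untreated signals of 129 and 179.6 in replicates 1 and 2 met nicotinamide signals of 331 and 761. The greatest was an 11.3-fold difference at 69 h, where untreated signals were 63.2 and 74.1 and nicotinamide signals 846 and 1038. Taken within replicate 1 the rise was 4.85-fold, and within replicate 2 it was 5.18-fold.

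GH3.5 was also higher under nicotinamide at every time. Its untreated signal ran from 84.2 at 93 h to 239 at 81 h, with a median of 152 and a mean of 158 ± 37.2 (SD, n = 24). Under nicotinamide it ran from 287 at 49 h to 1790.2 at 85 h, with a median of 726 and a mean of 728 ± 302 (SD, n = 24). Here too all 24 nicotinamide arrays were above all 24 untreated arrays, by a factor of at least 1.20, again with no share of all probe sets counted. The mean difference was 2.03 ± 0.08 (SE), or 4.08-fold (95% confidence interval 3.66 to 4.54; adjusted p = 2.39e-26, limma), at rank 115 by size. All 12 times passed by themselves, with adjusted p values from 1.18e-11 to 0.000238. The difference was smallest at 49 h, at 1.24 ± 0.27, with nicotinamide signals of 287 and 464 against 184 and 114. It was greatest at 85 h, at 2.96 ± 0.27, with nicotinamide signals of 1019 and 1790.2 against 181 and 142. The higher of these came from an array that stood apart. Within replicate 1 the rise was 3.63-fold and within replicate 2 it was 4.57-fold. Both lie outside the confidence interval above, which takes no account of the time course an array belongs to. Replicates were closer in untreated seedlings, where the higher signal of a time was a median of 1.23 times the lower, than under nicotinamide, where it was 1.47 times. For GH3.3 the same medians were 1.29 and 1.57 times.

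**Figure D1:**
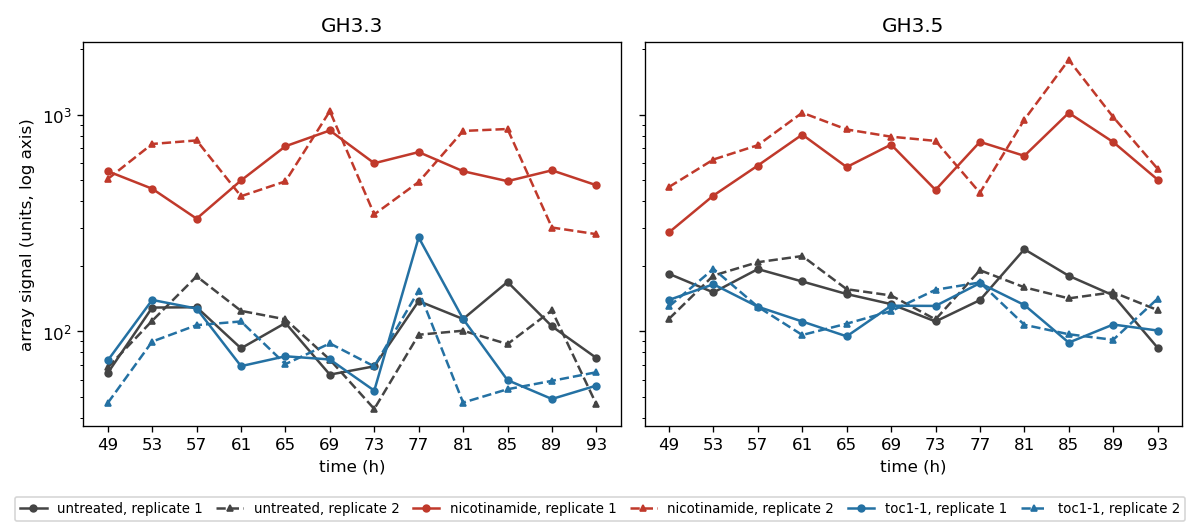
Array signal of GH3.3 and GH3.5 (log axis) against time in hours for each condition and replicate, 1 array per point. All nicotinamide arrays of both genes lie above all arrays of the other conditions, with the closest approach at the toc1-1 array of 77 h replicate 1 (271 for GH3.3). How many of all probe sets are so separated was not counted. Heights of the 2 genes come from different probe sets and are not comparable.

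The root markers moved with this comparison, and their part in it was not tested. PYK10, the brightest of them, had medians of 3569 without treatment, 2208 with nicotinamide and 3622 in toc1-1. It was lower by 0.70 ± 0.07 under nicotinamide (adjusted p = 2.53e-11, limma) and was not called in toc1-1 (adjusted p = 0.995). Without PYK10, the other 6 root markers summed to a median of 465 without treatment and 69.8 with nicotinamide. In 1 of the 24 untreated arrays, 93 h replicate 1, that sum was 23.2 and lay within the nicotinamide range of 19.9 to 116. The next lowest untreated sum was 245. In that array GH3.3 had a signal of 75.5 and GH3.5 of 84.2, below every nicotinamide array for each gene. In toc1-1 the sum had a median of 85.2, beside GH3.3 and GH3.5 medians of 72.1 and 130.1. In RNA from whole tissue, a change in the number of cells that express a gene and a change in its RNA per cell cannot be told apart.

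Whether the difference under nicotinamide changed over the time course was tested as time by condition. GH3.5 was called (adjusted p = 0.0353, moderated F test in limma), as were 16.6% of probe sets. That call was lost without the array of 85 h replicate 2 (adjusted p = 0.108). It was also lost with either untreated time course left out (adjusted p = 0.376 and 0.315) and with either toc1-1 time course left out (0.207 both times). GH3.3 was not called (adjusted p = 0.161), but passed with either nicotinamide time course left out (0.0276 and 0.0164). A comparison of the means of the second and the first 24 h found a difference of 0.24 ± 0.11 for GH3.5 under nicotinamide (adjusted p = 0.144), against -0.18 ± 0.11 in untreated seedlings (adjusted p = 0.702). The difference of those differences was 0.41 ± 0.15 (adjusted p = 0.136). In toc1-1 GH3.5 differed by -0.06 ± 0.11 (adjusted p = 0.831). For GH3.3 the second cycle differed from the first by -0.10, -0.19 and -0.16 in untreated, nicotinamide and toc1-1 arrays, each ± 0.14. Neither gene was called for a change between cycles in any condition, where 0.0366%, 7.55% and 5.7% of probe sets were called in the same order, and 1.03% for the difference of nicotinamide from untreated. Without nicotinamide replicate 2 the GH3.5 change was called, at 0.29 under nicotinamide (adjusted p = 0.0446) and at 0.47 against untreated (0.0126). In that fit 29.4% and 23.1% of all probe sets were called. For GH3.3 the value in untreated seedlings ran from -0.38 to 0.18 with either untreated time course left out, and that under nicotinamide from -0.41 to 0.029 with either nicotinamide time course left out, so neither had a settled direction.

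**Figure D2:**
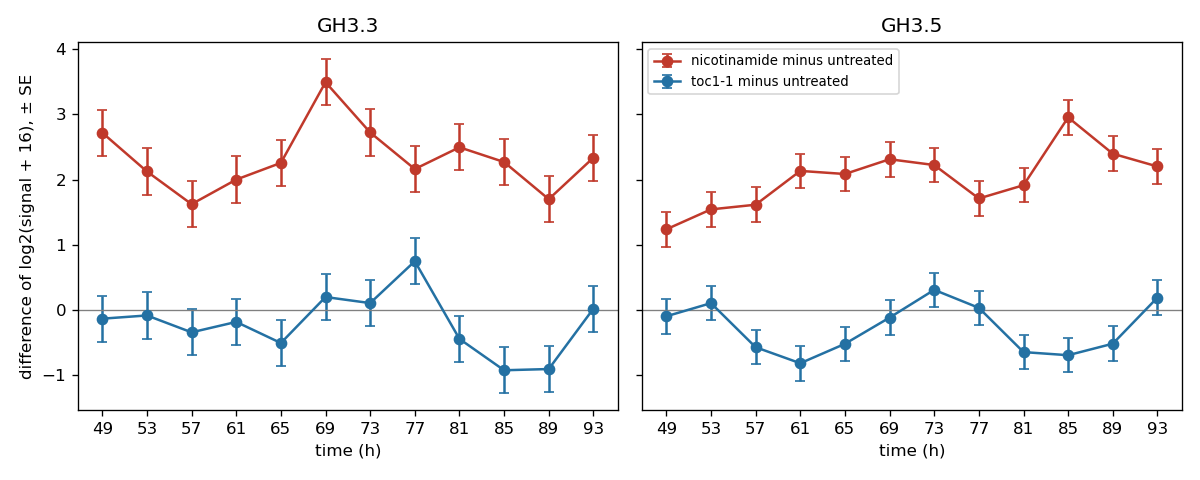
Difference of log2(signal + 16) from untreated seedlings at each time in hours, for nicotinamide and for toc1-1; points are means of 2 replicates in each condition and bars are ± SE from the limma fit. Nicotinamide differences stay above 1.2 at all 12 times for both genes, while those of toc1-1 lie on both sides of 0.

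In toc1-1 both genes were near the untreated level. GH3.3 signals ran from 46.8 at 49 h to 271 at 77 h, with a median of 72.1 and a mean of 88.6 ± 49.3 (SD, n = 24). GH3.5 signals ran from 88.9 at 85 h to 194 at 53 h, with a median of 130.1 and a mean of 127 ± 28.1 (SD, n = 24). Both ranges overlapped the untreated range, with 1 toc1-1 array of GH3.3 and none of GH3.5 above it. The mean of GH3.5 was lower by 0.28 ± 0.08 on the log2 scale (adjusted p = 0.00312, limma), which is 1.21-fold (95% confidence interval 1.09 to 1.35). The toc1-1 array was the lower one in 16 of 24 pairs of time and replicate number. Of all probe sets, 19.6% were called lower in toc1-1. The call was lost with time courses as a random block (adjusted p = 0.128) and without toc1-1 replicate 1 (0.0705). The mean of GH3.3 differed by -0.21 ± 0.10 (95% confidence interval -0.41 to 0.0008; adjusted p = 0.102), and it passed only with a nicotinamide time course left out (0.0374 for either). Within replicates 1 and 2 the ratio of toc1-1 to untreated was 0.882 and 0.852 for GH3.3, and 0.825 and 0.823 for GH3.5.

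At single times neither gene passed in toc1-1 (0 of 12 for each, limma), where 1.21% of all tests at single times did. With either nicotinamide time course left out, 3 times passed for GH3.5. At an unadjusted p under 0.05 there were 3 such times for GH3.3, namely 77, 85 and 89 h. There were 4 for GH3.5, namely 57, 61, 81 and 85 h. GH3.3 was 0.75 ± 0.35 higher at 77 h, then 0.93 ± 0.35 lower at 85 h in the mutant. GH3.5 was lower by 0.82 ± 0.27 at 61 h and by 0.70 ± 0.27 at 85 h, a cycle later. Time by condition was not called for toc1-1 against untreated in GH3.3 (adjusted p = 0.949) or GH3.5 (adjusted p = 0.562), where 2.1% of probe sets were. GH3.5 passed with either nicotinamide time course left out (adjusted p = 0.0214 and 0.0217). Nicotinamide seedlings were above the mutant by 2.53 ± 0.10 for GH3.3 (adjusted p = 3.25e-25) and 2.31 ± 0.08 for GH3.5 (adjusted p = 3.65e-28), a comparison that shares its nicotinamide arrays with the one above and in which 30.3% were higher. By mean level, the order of conditions for GH3.5 was nicotinamide, untreated and toc1-1. For GH3.3 the last 2 did not differ beyond their spread.

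Whether GH3.3 and GH3.5 changed by unequal amounts was tested on the log2 difference between the genes, over 24 pairs of time and replicate number, which match arrays by number only. Under nicotinamide the change of GH3.3 exceeded that of GH3.5 by 0.30 ± 0.16 (SE, n = 24 pairs), with 16 of 24 pairs above 0. This did not pass a two-sided sign-flip permutation test with 100000 resamples (p = 0.0735). With a pseudocount of 1 it did pass (p = 0.0362), and its range over the alternatives was 0.15 to 0.42. In toc1-1 the changes differed by 0.07 ± 0.10, with 12 of 24 pairs above 0 (permutation p = 0.446).

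In untreated seedlings both transcripts cycled with a peak near 10 h on a 24 h scale, on which the labelled 49 h is 1 h. The cosine fitted to GH3.3 had an amplitude of 0.46 ± 0.10 log2 units (SE), a 1.89-fold change from trough to peak, and a fitted peak at 10.7 ± 0.85 h (adjusted p = 0.00207, moderated F test in limma). Its replicates peaked at 10.2 and 11.1 h. GH3.3 signals were at 129 and 179.6 at 57 h, fell to 69.1 and 43.9 at 73 h and stood at 169 and 87.5 at 85 h. GH3.5 had an amplitude of 0.32 ± 0.08 and a peak at 10.1 ± 0.91 h (adjusted p = 0.00474), with replicates at 9.88 and 10.3 h. A 24 h rhythm was called in 22.9% of probe sets, whose median amplitude was 0.32. With either untreated time course left out, neither gene passed (adjusted p = 0.0831 and 0.222 for GH3.3, 0.272 and 0.104 for GH3.5). GI, a component of the clock, peaked at 10.6 ± 0.21 h with an amplitude of 1.36 ± 0.08 in these arrays. COR27, a cold-regulated clock output, peaked at 13.7 ± 0.25 h with an amplitude of 1.81 ± 0.12.

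Under nicotinamide GH3.5 cycled and peaked later, while GH3.3 was not called rhythmic. The amplitude of GH3.5 was 0.53 ± 0.08, a 2.09-fold change from trough to peak, and its peak was at 13.7 ± 0.55 h (adjusted p = 5.39e-06). The time courses gave 13.4 and 13.9 h, and amplitudes of 0.47 and 0.59. GH3.5 signals were lowest at 49 h in replicate 1 (287) and at 77 h in replicate 2 (436), and highest at 85 h in both (1019 and 1790.2). A rhythm was called in 32% of probe sets, and the amplitude of GH3.5 ranked 318 among those 4371. Compared with untreated seedlings, the rhythm of GH3.5 differed (adjusted p = 0.00728, against 25.9% of probe sets called), with a peak 3.64 ± 1.07 h later and an amplitude 0.21 ± 0.11 higher. The shift was 3.56 h within replicate 1 and 3.62 h within replicate 2. GI peaked 6.92 ± 0.38 h later and COR27 8.67 ± 0.56 h later in the same arrays, with lower amplitudes by 0.42 and 0.93. Whether GH3.5 shifted less than these genes was not tested. The call of a differing GH3.5 rhythm was lost with either untreated time course left out (adjusted p = 0.114 and 0.062) and with a linear trend in the fit (0.103).

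GH3.3 under nicotinamide had a fitted amplitude of 0.06 ± 0.10 (adjusted p = 0.865), and its peak is not given since its error spans the cycle. The replicate time courses went apart, with fitted amplitudes of 0.25 and 0.37 and peaks 11.6 h from each other. At 57 h the signals were 331 and 761, and at 89 h they were 554 and 302. With replicate 1 left out the amplitude was 0.37 and passed (adjusted p = 0.0379). The rhythm of GH3.3 did not differ from that of untreated seedlings at the threshold (adjusted p = 0.0751; amplitude lower by 0.40 ± 0.14). It passed after quantile normalization (0.035), without the array of 85 h replicate 2 (0.0345), without both arrays that stood apart (0.0379) and without nicotinamide replicate 2 (0.00123). GH3.3 and GH3.5 were not tested against each other for rhythm.

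**Figure D3:**
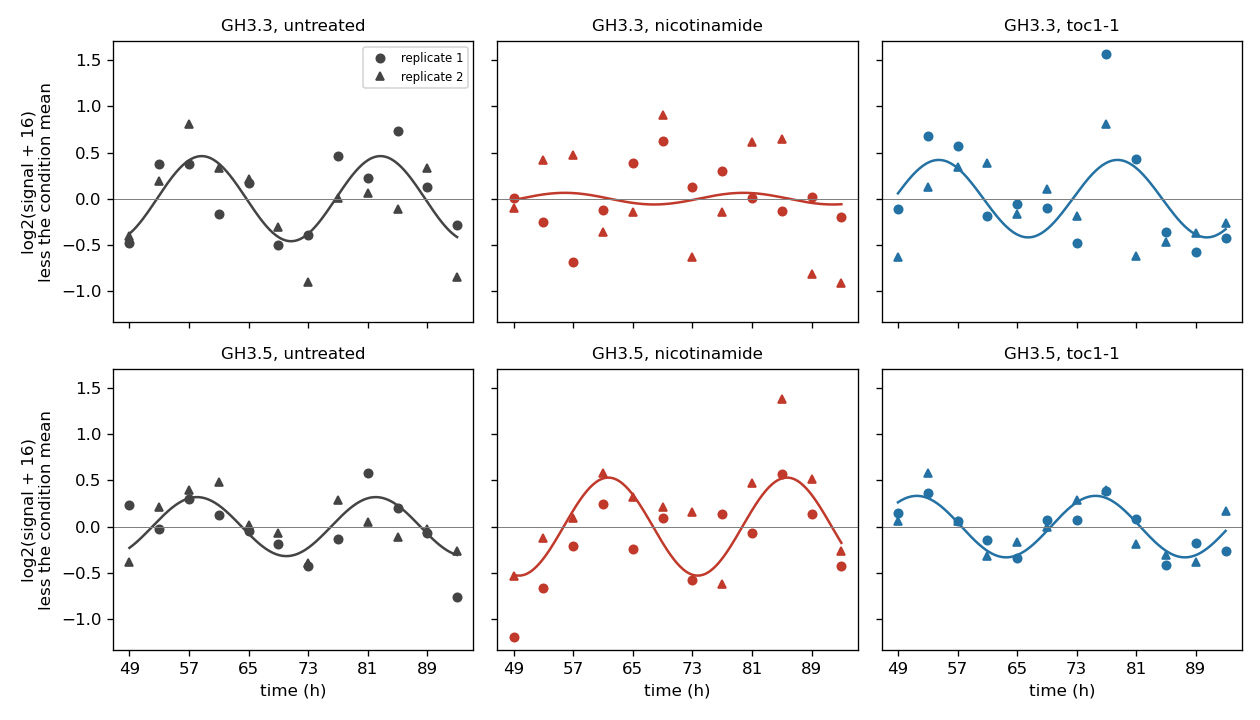
Values of log2(signal + 16) less the mean of the condition, against time in hours, for each gene and condition; circles and triangles are replicates 1 and 2, and the curve is the fitted 24 h cosine. The GH3.3 replicates under nicotinamide lie on opposite sides of 0 at several times, while GH3.5 peaks near 61 and 85 h there.

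In toc1-1 both genes were called rhythmic with early peaks. GH3.5 had an amplitude of 0.33 ± 0.08 and a peak at 3.53 ± 0.88 h (adjusted p = 0.00815), with replicates at 4.20 and 2.96 h. GH3.5 signals in the mutant were high at 53 h (165 and 194) and 77 h (167 and 168), and low at 61 h (111 and 96.3) and 85 h (88.9 and 97.1). The replicates agreed closely here, the higher of a time being a median of 1.15 times the lower. GH3.3 had an amplitude of 0.42 ± 0.10 and a peak at 6.48 ± 0.93 h (adjusted p = 0.0149). A rhythm was called in 8.54% of probe sets. The GH3.3 call rested on the array of 77 h replicate 1, whose signal of 271 was the highest in the mutant. Without it the amplitude was 0.36 (adjusted p = 0.0695), and without the whole of replicate 1 it was 0.19 (adjusted p = 1). The GH3.5 rhythm did not pass with either toc1-1 time course left out (adjusted p = 0.456 and 0.533), with amplitudes of 0.36 and 0.31.

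The GH3.5 rhythm in toc1-1 differed from that in untreated seedlings (adjusted p = 0.00595, against 7.2% of probe sets), with a peak 6.54 ± 1.27 h earlier and an amplitude that differed by 0.01 ± 0.11. The shift was -5.69 h within replicate 1 and -7.34 h within replicate 2. The call was lost with any untreated or toc1-1 time course left out (adjusted p = 0.101 to 0.329). GI and COR27 peaked 4.17 ± 0.44 h and 3.91 ± 0.48 h earlier in the mutant. For GH3.3 the peak was 4.22 ± 1.26 h earlier and the difference of rhythm was not called (adjusted p = 0.107), though it passed with either nicotinamide time course left out (0.0181 and 0.0182). Between nicotinamide and toc1-1 the GH3.5 peaks lay 10.2 ± 1.04 h apart (adjusted p = 3.66e-07, against 22.9% of probe sets), and GH3.3 was not called (adjusted p = 0.149), though it passed without nicotinamide replicate 2 (0.00381). These shifts are for a fixed period of 24 h. The period that best described GI, COR27 and AT4G33980 together was 23.7 h (untreated), 26 h (nicotinamide) and 21.6 h (toc1-1). With each condition at its own period the GH3.5 differences were no longer called, with adjusted p = 0.0631 for nicotinamide against untreated, 0.987 for toc1-1 against untreated and 0.0571 for nicotinamide against toc1-1. In the same fit GH3.3 under nicotinamide differed from untreated seedlings (0.014) and from toc1-1 (0.0339). Its terms count time from the origin of the labelled hours, so waves of unlike period are compared there. It therefore cannot decide whether the rhythms differ over the hours sampled.

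**Figure D4:**
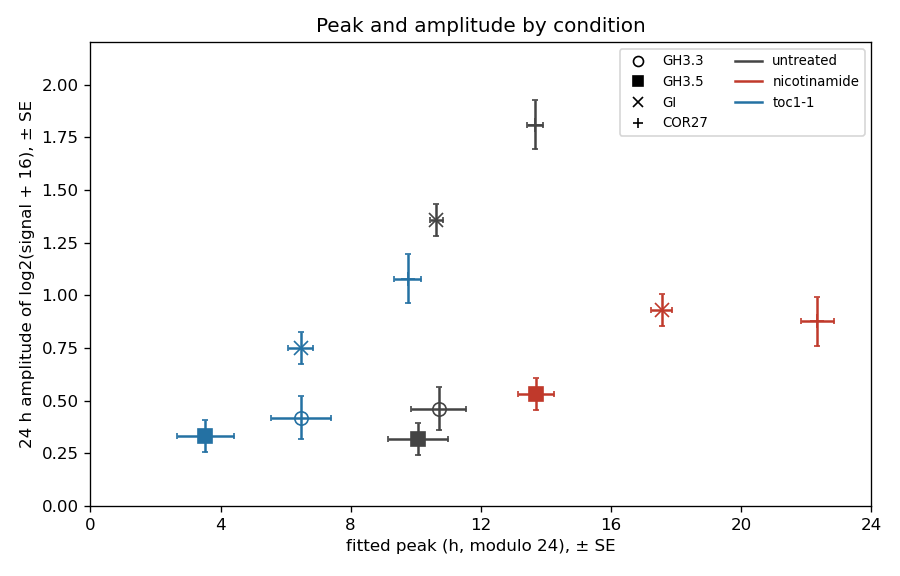
Fitted 24 h amplitude of log2(signal + 16) against fitted peak in hours modulo 24, with ± SE, for GH3.3 and GH3.5 and, as a phase reference, GI and COR27. GH3.5 moves from 10.1 h in untreated seedlings to 13.7 h under nicotinamide and 3.53 h in toc1-1; GH3.3 under nicotinamide is left out because it was not called rhythmic.

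The patterns of GH3.3 and GH3.5 were alike across conditions and less so within them. Pearson's r between them was 0.947 over the 36 means of condition and time, which mostly share the step between nicotinamide and the other conditions. Over the same means less each condition's own mean it was 0.48. Within a condition it was 0.81 (untreated), 0.24 (nicotinamide) and 0.64 (toc1-1), over 12 means each that come from the same arrays. Over the differences between replicates it was 0.18 (36 times). Over the 36 means GH3.5 was 14th of 13646 probe sets in likeness to GH3.3, and GH3.3 was 87th in likeness to GH3.5. With each condition's own mean taken off, these places were 415th and 723rd. Genes named next come only from tested probe sets annotated to 1 gene, while the places above count all tested probe sets. On that basis the genes of highest r with GH3.3 were AT4G12490 (0.954), AT5G01210 (0.952), AT2G41730 (0.950), AT5G42950 (0.949) and AT3G01850 (0.947). For GH3.5 they were AT3G43430 (0.977), AT3G55430 (0.971), AT1G08315 (0.970), AT5G37540 (0.967) and again AT4G12490 (0.967). AT4G12490 itself was higher under nicotinamide by 3.07 ± 0.13. Less the condition means, AT4G08780 (0.771), AT1G33590 (0.764), UGT71C5 (0.717), AT1G01500 (0.716) and AT5G20950 (0.701) came closest to GH3.3. UGT71C5 encodes a glucosyltransferase of abscisic acid. AT1G18740 (0.833), AT3G55430 (0.829), AT3G56880 (0.828), AT1G21010 (0.808) and AT5G60680 (0.802) came closest to GH3.5. AT3G55430 was the only gene among the 5 nearest to GH3.5 by both measures, and it was higher under nicotinamide by 1.76 ± 0.08.

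Of 19 GH3 family genes listed, 11 had a named probe set and 3 were bright enough to be tested. Besides GH3.3 and GH3.5 this was GH3.17, a synthetase that joins auxin to glutamate. GH3.17 had a median signal of 91.3 without treatment, 178 with nicotinamide and 65.6 in toc1-1. It rose by 0.91 ± 0.08 under nicotinamide (adjusted p = 5.44e-14) and was lower by 0.26 ± 0.08 in toc1-1 (adjusted p = 0.00632). So the 3 tested members, GH3.3 and GH3.5 among them, were called higher under nicotinamide, as were 30.9% of all probe sets. Their median of 2.03, beside -0.12 over all probe sets, is the value of GH3.5 itself. Of the 3, 2 were called lower in toc1-1, as were 19.6% of all probe sets. The other 8 were too dim to be tested. Their untreated medians ran from 1.18 for GH3.1 and 1.56 for AT1G23160 through 4.58 for AT5G51470, 6.48 for AT1G48660, 7.92 for AT5G13380 and 9.18 for AT5G13350 to 12.7 for GH3.9 and 13.5 for AT1G48670. Under nicotinamide the medians of these 8 ran from 0.685 to 13.6.

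Few other auxin genes had a named probe set, and those tested moved in both directions. Of the auxin lists together, 7 genes apart from GH3.3 and GH3.5 were tested, GH3.17 among them, of which 5 were higher and 1 was lower under nicotinamide, beside 30.9% and 48.4% of all probe sets. In toc1-1 none was called higher and 2 were called lower, beside 22.1% and 19.6% of all probe sets. UGT74D1, a glucosyltransferase that acts on auxin and its oxidised form, rose by 0.96 ± 0.06 under nicotinamide (adjusted p = 3.87e-19). HAT2, an auxin-induced homeodomain transcription factor, rose by 0.66 ± 0.06 under nicotinamide (adjusted p = 1.31e-12) and was lower by 0.64 ± 0.06 in toc1-1 (adjusted p = 8.3e-11). IAA18, a repressor of auxin response, rose by 0.46 ± 0.11 (adjusted p = 0.000186). In toc1-1 IAA18 differed by 0.23 ± 0.11 (adjusted p = 0.081) and was called higher after quantile normalization (0.0364). On the list of auxin oxidation and hydrolysis, AT1G14120 fell by 1.16 on the log2 scale (SE 0.09, adjusted p = 2.98e-16) and AT1G14130 was higher by 0.17 ± 0.07 (adjusted p = 0.028). YUC2, a flavin monooxygenase of auxin synthesis, differed by -0.10 ± 0.06 (adjusted p = 0.114), but was called higher, at 0.19, after quantile normalization (0.00615). No gene listed for auxin transport, auxin receptors and response factors, or jasmonate had a named probe set in the annotation used here. Of the salicylate list 2 of 26 genes were tested, and both were called higher in each comparison, as were 30.9% of all probe sets under nicotinamide and 22.1% in toc1-1. SAG101, a partner of the defence regulator EDS1, rose by 0.34 ± 0.09 under nicotinamide (adjusted p = 0.000777) and by 0.38 ± 0.09 in toc1-1 (0.000704). GRX480, a salicylate-induced glutaredoxin, rose by 0.31 ± 0.08 (0.000378) and by 0.41 ± 0.08 (4.04e-05). Among the root genes of the same arrays, AT5G17820 fell by 2.30 under nicotinamide and by 1.91 in toc1-1. Its medians there were 11.1 and 16.3, against 116 without treatment, so the added 16 limits both sizes. AT4G26010 was called lower in both, with a median signal of 184.8 without treatment, 0.766 with nicotinamide and 10.2 in the mutant. No fold is given for it, since at such low signals the added 16 sets the size.

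**Figure D5:**
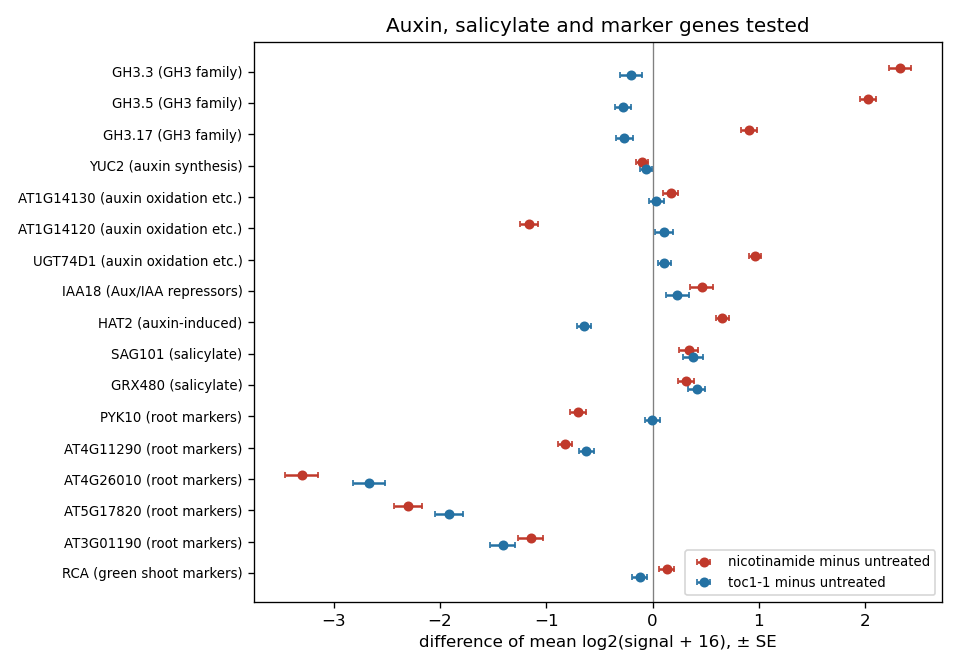
Difference of mean log2(signal + 16) from untreated seedlings, with ± SE, for the tested genes of the GH3, auxin, salicylate and marker lists, under nicotinamide and in toc1-1. GH3.3 and GH3.5 lie farthest to the right under nicotinamide, at 2.33 and 2.03, and the root marker AT4G26010 farthest to the left, where the added 16 limits the size.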

How the data were processed

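Signal intensity per probe set, on a linear scale, is what the authors deposited. The submitters' processing notes name MAS5 and GCOS, with no version. On the values it was checked that every array has a mean of 100 once the top and bottom 2% of probe sets are left out. Precision is limited by the number of arrays. Of 22810 probe sets, the 64 controls were left out and the upper 60% by mean log2(signal + 16) entered the tests. That scale understates changes of dim genes. In limma (version 3.58.1, R 4.3.3, data.table version 1.17.8) each of the 36 pairs of condition and time had a mean of its own, and the variance was moderated with an intensity trend. The fit had 36 residual and 6.74 prior degrees of freedom, and every condition shares its spread and standard errors. Rhythm was tested with the 24 h cosine and sine terms, and peak errors are delta-method values. Permutation tests, per-array summaries and plots used Python 3.11.15, numpy 2.4.6, pandas 2.3.3 and matplotlib 3.10.9. The procedure was tested on simulated data.

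Nothing states that replicates are independent cultures, so p values cover the spread between these samples alone, which may be technical. The annotation of the array gave 13513 probe sets 1 gene, 503 several and 8794 none, and 13436 were matched to current names. Sequences and positions are not used here, and the gene mutated in toc1-1 is not reported. The members and lists were chosen with earlier results of these data known. Genes named are the GH3 family, per list up to 3 of smallest adjusted p for nicotinamide and 2 for toc1-1, the 5 most alike by each measure, and the phase reference genes. The most alike were taken among probe sets annotated to 1 gene. Of several probe sets the brightest was used. PYK10, the brightest root marker, is named outside that rule, after its values were seen. The settings varied were the scaling (quantile), the pseudocount (1 and 64), the filter (none and the upper 40%), a replicate block, time courses as a random block, the intensity trend, a trend in time, the period, and arrays or time courses left out.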

Additional observations from a re-analysis of the deposited data

Results flagged for a closer look

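All results listed here concern GH3.5 and were listed because a test of the difference between conditions passed its threshold. The time course of GH3.5 differed between nicotinamide and untreated seedlings (time by condition, adjusted p = 0.0353, limma), a call kept in 11 of 19 alternatives and lost in the others, with adjusted p up to 0.376. The 24 h rhythm of GH3.5 differed between nicotinamide and untreated seedlings (adjusted p = 0.00728), with a peak later by 3.64 ± 1.07 h. It differed between toc1-1 and untreated seedlings (adjusted p = 0.00595), with a peak earlier by 6.54 ± 1.27 h. It also differed between nicotinamide and toc1-1 (adjusted p = 3.66e-07), with peaks 10.2 ± 1.04 h apart. These comparisons share arrays. The nicotinamide against untreated rhythm call was lost with either untreated time course left out, and that of toc1-1 against untreated with any untreated or toc1-1 time course left out. None of the 3 differences of rhythm passed when each condition was given its own period, a fit that compares the waves outside the hours sampled.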

How the results depend on the processing

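Of the alternatives run, none reversed a called result for GH3.3 or GH3.5. The second minus first cycle of GH3.3, not called in any fit, changed sign with a time course left out, to 0.18 in untreated seedlings, to 0.029 under nicotinamide, and to 0.19 and 0.13 for their difference. The rise under nicotinamide kept its direction and its call throughout, between 1.92 and 2.51 for GH3.3 and between 1.77 and 2.21 for GH3.5. GH3.3 and GH3.5 passed by themselves at 11 or 12 times in every alternative. The fit without arrays whose title ends in 2 had no nicotinamide array of 1 time, so only 11 could be tested there. With a time course, a single array or both arrays that stood apart left out, the toc1-1 difference ranged from -0.28 to -0.13 for GH3.3 and from -0.30 to -0.26 for GH3.5. The number of times called for GH3.5 in toc1-1 was 0 to 3, and 3 only without a nicotinamide time course. With time courses as a random block the GH3.5 difference was -0.28 and no longer called. Amplitudes under these omissions were 0.42 to 0.51 (GH3.3) and 0.28 to 0.36 (GH3.5) in untreated seedlings, 0.044 to 0.37 (GH3.3) under nicotinamide, and 0.19 to 0.65 (GH3.3) and 0.31 to 0.36 (GH3.5) in toc1-1. The size of the difference of rhythm, as the length of the cosine and sine difference, ranged under the same omissions for GH3.3 from 0.23 to 0.69 for nicotinamide against untreated, 0.39 to 0.61 for toc1-1 against untreated and 0.13 to 0.63 for nicotinamide against toc1-1. For GH3.5 it ranged from 0.37 to 0.50 for nicotinamide and 0.44 to 0.55 for toc1-1 against untreated. For GH3.3 the nicotinamide difference passed at 0.47 after quantile normalization and at 0.47 without both arrays that stood apart. With the period of each condition, where waves are compared outside the hours sampled, it passed at 0.55, and that from toc1-1 at 0.57. For GH3.5 the differences with those periods were 0.34, 0.050 and 0.38 in the order of the report, not called, and 0.31 with a linear trend. Time by condition against untreated had an F of 1.18 to 3.11 for GH3.3 and 1.98 to 5.35 for GH3.5 under nicotinamide, and 0.807 to 4.18 for GH3.5 in toc1-1. For GH3.5 it was 3.00 with no filter, 2.79 without arrays whose title ends in 2 and 2.86 without the arrays that stood apart, not called in any of them. The second minus first cycle of GH3.5 under nicotinamide ranged from 0.11 to 0.29, and its difference from untreated from 0.28 to 0.47, both lowest without the arrays that stood apart. With a pseudocount of 1 the unequal change of the genes was 0.37. The cause of these moves was not tested. Fewer arrays, or a different spread shared by all conditions, enter each fit that leaves arrays out. The deviations of same-numbered arrays correlated above 0.1 at 10 of 12 times for untreated and nicotinamide (median r 0.197). For either with toc1-1 this held at 5 of 12 times (0.0822 and 0.0502). As it did not hold at every time, the main limma tests did not take the numbers as a pairing. The test of unequal change, the counts over pairs and the comparisons within a replicate number match arrays by number only. With a replicate block the GH3.3 and GH3.5 rises were 2.33 and 2.03, and no call changed. The choice of arrays left out alone was made after seeing the data. Counts of calls over all probe sets moved by over 1.5 times in 100 of 373 recounts. That for the toc1-1 rhythm ran from 211 to 2091, and that of time by condition under nicotinamide from 683 to 6426. The number of arrays limits all of this.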

Other observations

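When a cosine of free period between 18 and 34 h was set to each time course, the best period for GH3.5 was 25.7 and 21.9 h in untreated replicates 1 and 2. It was 23.2 and 22.8 h under nicotinamide, and 24 and 22.2 h in toc1-1. For GH3.3 it was 25.8 and 25.4 h in untreated seedlings, 31.9 and 25.3 h under nicotinamide, and 22.8 and 19.3 h in toc1-1. The periods come from 12 times each, are given as values with no test, and were chosen after the fits were seen. The period of 26 h that GI, COR27 and AT4G33980 shared under nicotinamide lay outside both GH3.5 values there.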
